A study of Arabidopsis thaliana with 3 samples.

Results

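The regions described here are places between annotated genes, on the arms of the 5 nuclear chromosomes of Arabidopsis thaliana. At each, root DNA recovered with recombinant GRF5 protein gave a peak in both of 2 libraries. A pair of peaks, 1 from each library, was kept when the overlap covered 50% or more of the shorter peak, when the authors' annotation gave intergenic as the only region of both, and when the summit in replicate 1 lay more than 2 Mb from the position used for the centromere of its chromosome (15.1 Mb on chromosome 1, 3.6 on 2, 13.6 on 3, 4.0 on 4 and 11.7 on 5). The rule kept 1402 of 19008 shared nuclear peaks, or 7.38%. It set no threshold on signal strength beyond the peak calling itself, which each place had to pass in both libraries (q of at most 0.05). Another 475 shared peaks were intergenic only but within 2 Mb of a centromere position, and 3521 were promoter only.

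The study made DAP-seq libraries, in which a purified transcription factor is mixed with sheared naked genomic DNA and the fragments it retains are sequenced. The GRF5 protein carried a His tag and was produced in Escherichia coli, the DNA was sheared to fragments of 200 to 500 bp, and bound fragments were pulled out with an antibody to GRF5. The DNA came from roots of Col-0 wild-type seedlings, 7 days old when moved to low nitrate (0.2 mM) for 3 days. The protocols give this treatment for the input library too, but its treatment label reads control, so its nitrate supply is unsettled. The 2 GRF5 libraries are labelled biological replicates, and a single input library without recovery is the reference for both. Nothing in the labels shows separate preparations of protein or DNA, so differences between the replicates can be purely technical. The series' design text gives libraries of these names to a chromatin immunoprecipitation, whereas titles and protocols describe DAP-seq, which was followed.

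GRF proteins are a small family of plant transcription factors that carry the QLQ and WRC domains, the WRC domain contacting DNA and the QLQ domain binding GIF coactivators. Their messages are targets of the microRNA miR396, and the family is known for promoting cell proliferation in leaves and roots. DNA between genes can hold distal regulatory elements, transposons, tandem repeats or unannotated transcripts. Naked DNA keeps its base methylation but no nucleosomes, so a peak here reports recovery of the fragment in vitro and not occupancy in root cells. The series holds no pull-down without GRF5, so recovery that does not depend on GRF5 was not measured. Untranslated regions have no class in the authors' annotation, so a peak called intergenic may overlap one, which was not resolved here.

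Fold enrichment is the authors' ratio of the fragment pileup at a summit to the local background from the input. Median fold enrichment of the 1402 peaks was 1.94 in replicate 1 and 1.95 in replicate 2. From the 5th to the 95th percentile it ran from 1.55 to 2.56 in replicate 1 and from 1.56 to 2.57 in replicate 2. Most intergenic arm peaks were thus weak, and a short tail reached 9.63 and 9.03. The median summit pileup was 86 fragments in replicate 1 (lowest 55, highest 450) and 81 in replicate 2 (lowest 52, highest 387).

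The peaks were sorted by the mean of both fold enrichments to show how the set is made up. A mean below 1.75 was found for 281 peaks (20.0%), a mean from 1.75 to 2 for 527 (37.6%), a mean from 2 to 2.5 for 518 (36.9%) and a mean from 2.5 to 3 for 62 (4.42%). The remaining 14 peaks (0.999%) had a mean of 3 or more. The position of the summit differed less between the libraries as the mean went up, with a median distance of 67, 55, 37, 20 and 8 bp over these bands from low to high.

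At least 2-fold enrichment in both libraries was reached by 382 intergenic arm peaks, or 27.2% (95% Wilson interval 25.0 to 29.6), against 22.1% of all shared nuclear peaks. Read against the other 17606 shared peaks, of which 3815 passed (21.7%, 21.1 to 22.3), the share was higher, and it stood at that of promoter-only peaks (27.2%, 25.7 to 28.6). At least 3-fold enrichment in both libraries was reached by 11 intergenic arm peaks (0.785%, 0.439 to 1.40), against 1.42% of all shared nuclear peaks. Here the share was below that of the other shared peaks, of which 258 passed (1.47%, 1.30 to 1.65), and close to that of promoter-only peaks, of which 24 passed (0.682%, 0.458 to 1.01). Pericentromeric intergenic peaks stood at 35.2% (31.0 to 39.6) at 2-fold and at 1.26% (0.580 to 2.73) at 3-fold. The intergenic arm peaks thus made up 9.10% of the 4197 shared peaks at 2-fold and 4.09% of the 269 at 3-fold. These intervals cover error in counting peaks only. Peaks of a library are not replicates and a two-sided exact permutation test over 2 libraries cannot give a p below 0.5, so no difference between classes of peaks was tested.

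**Figure D1:**
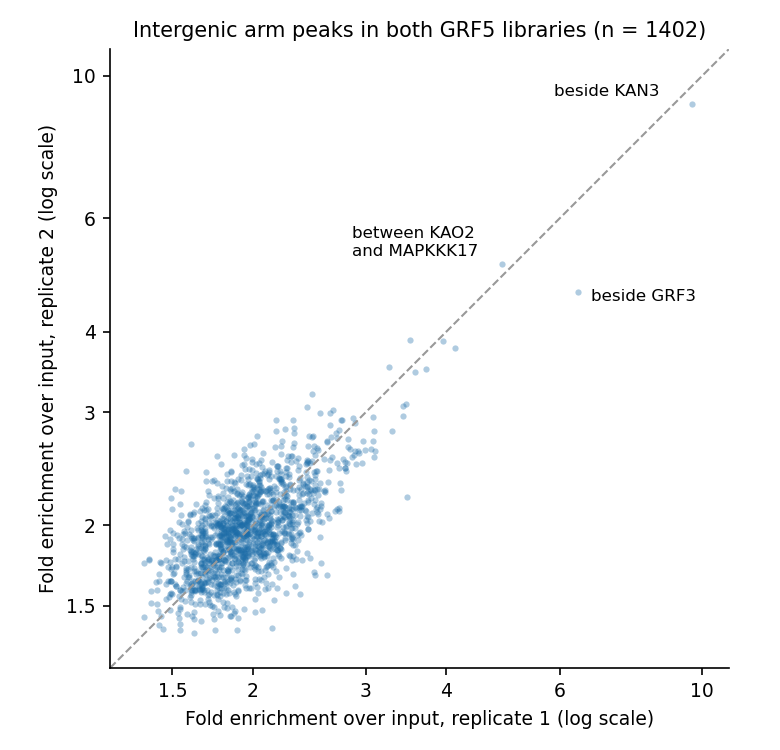
Fold enrichment over input in GRF5 replicate 1 (x axis, log scale) against replicate 2 (y axis, log scale) for each of the 1402 intergenic arm peaks, 1 point a peak, with the dashed line marking equal values. Most points lie between 1.5 and 2.6 in both libraries, and the peaks beside KAN3, beside GRF3 and between KAO2 and MAPKKK17 stand apart from the rest.

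The strongest intergenic peak lay on chromosome 4 from 9847599 to 9848096, next to KAN3, a KANADI family transcription factor of the group that sets abaxial identity in lateral organs. Its fold enrichment was 9.63 in replicate 1 and 9.03 in replicate 2, from summit pileups of 450 fragments (95% Poisson interval 409 to 494) and 387 fragments (349 to 428). The summits were 4 bp apart, and by mean fold the peak ranked 5 among all 19008 shared nuclear peaks. It lay 489 bp from a peak over coding sequence and intron of KAN3, whose own enrichment was only 1.61 and 1.54, and 1444 bp from a peak over AT4G17690 on the other side. KAN3 and AT4G17690 are neighbours, with no gene between them in the RefSeq table. From the order of promoter and gene-body peaks in the files, KAN3 runs on the minus strand, so the intergenic peak lies on the 3′ side of the KAN3 body peak. Whether it overlaps the 3′ untranslated region was not resolved. The strand of AT4G17690 could not be inferred in this way.

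The peak second in strength lay beside another member of the GRF family. It covered chromosome 2 from 15275774 to 15276507 in replicate 1 and from 15276068 to 15276460 in replicate 2, on the upstream side of GRF3. Fold enrichment was 6.42 in replicate 1 and 4.61 in replicate 2, a ratio of 1.39 between the libraries, with pileups of 339 and 234 fragments and a summit distance of 4 bp. A peak annotated to the GRF3 promoter lay 346 bp away, with enrichments of 2.33 and 2.25, and the nearest peak in the GRF3 body lay 2696 bp away. The next protein-coding gene, AT2G36410, had its nearest body peak at 3693 bp. Between GRF3 and AT2G36410 the table places the long non-coding RNA AT2G08795 and the pseudogene AT2G36402. Gene order alone does not give their side of the intergenic peak. The intergenic peak, named for its high fold, was therefore stronger in both libraries than the shared peak in the GRF3 promoter.

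The third peak was nearly equal in both libraries and lay farther from any measured gene body. On chromosome 2 from 13781032 to 13781729, it had fold enrichments of 4.89 and 5.10, pileups of 239 and 234 fragments, and summits 9 bp apart. Its nearest gene-body peaks were 5197 bp away over KAO2, an enzyme of gibberellin synthesis, and 16952 bp away over MAPKKK17, a MAP kinase kinase kinase. The table places 6 protein-coding genes between these, MYB101 and ARASP among them, so the gene next to the peak cannot be named from the files.

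Of the other strong peaks, several lay between genes that adjoin each other. The peak on chromosome 3 from 3981500 to 3982202 had enrichments of 4.12 and 3.77 and lay 648 bp from a body peak of FDM3 and 849 bp from one of TRFL9, a TRF-like protein of the telomere-repeat binding type. The peak on chromosome 1 from 9202258 to 9203469 had enrichments of 3.26 and 3.52 and lay between AT1G26620 and FBR12, a translation factor of the eIF family. The strongest of chromosome 1, it was wide, at 1212 and 1041 bp. The peak on chromosome 3 from 18553403 to 18553910 had enrichments of 3.29 and 2.80 and lay 461 bp from a body peak of AT3G50050 and 1646 bp from one of AT3G50040. These 3 peaks showed summit distances of 8, 9 and 3 bp.

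Other strong peaks had genes with no measured gene-body peak between their flanks. On chromosome 3 from 18660891 to 18662088, enrichments were 3.96 and 3.87 in a peak 2600 bp from a body peak of HEC2, a HECATE basic helix-loop-helix factor of carpel development. A weaker intergenic peak stood 1328 bp from it, with 2.38 and 2.24. On chromosome 3 from 19743490 to 19744144, enrichments were 3.51 and 3.88 between RLP45, a receptor-like protein, and AT3G53270. PAL2, a phenylalanine ammonia-lyase that opens the phenylpropanoid pathway, lies among the 3 genes between these, and its promoter peak was 4069 bp away with enrichments of 1.91 and 1.86. In both places the named peak was the stronger one in each library, which its choice by high fold makes likely.

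The peak on chromosome 2 from 6374845 to 6375148, between AT2G14835 and AT2G14843, had enrichments of 3.73 and 3.50. A second intergenic arm peak 2117 bp away had 2.99 and 2.62. The peak on chromosome 3 from 16718387 to 16718731 had enrichments of 3.58 and 3.47 from pileups of only 112 and 102 fragments. Its implied background, the pileup divided by the fold after a pseudocount of 1, was 30.6 and 28.7 fragments, below the medians of 43.6 and 40.8 over all intergenic arm peaks. A high fold at this place thus went with a low background as well as a raised pileup, and the part of each was not tested.

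Another peak above 3-fold in both libraries lay on chromosome 5 from 22146309 to 22146746, with 3.42 and 3.06, the strongest of its chromosome. It stood 514 bp from a body peak of AT5G54520, with DFL1, a GH3 enzyme that joins auxin to amino acids, listed between AT5G54520 and FQR1, a quinone reductase. The peak on chromosome 2 from 1090488 to 1090800, with 3.46 and 3.09, had UPS1, a ureide permease, as its flank on one side. The remaining 3 of the 15 strongest were below 3-fold in replicate 2. Enrichments were 3.43 and 2.95 on chromosome 3 from 16411431 to 16411732 (between CHX10, a cation/proton exchanger, and AT3G44940), and 3.08 and 2.94 on chromosome 2 from 9522010 to 9522582. HB6, a homeodomain-leucine zipper factor of abscisic acid signalling, is among the 3 genes between the flanks of the second. On chromosome 3 from 10766205 to 10766823 they were 3.09 and 2.80, between AT3G28700 and AT3G28710. The 14 peaks with a mean of 3 or more were spread unevenly, with 6 on chromosome 3, 5 on chromosome 2 and 1 each on chromosomes 1, 4 and 5.

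**Figure D2:**
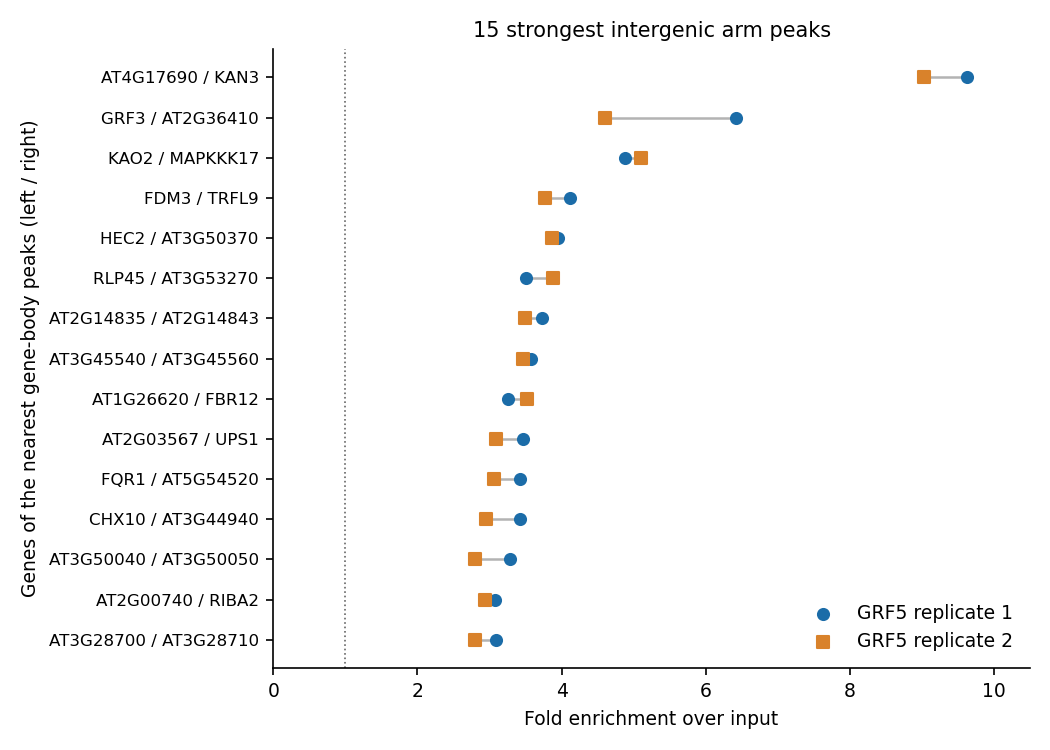
Fold enrichment over input (x axis, linear) of the 15 intergenic arm peaks with the highest mean, named on the y axis by the genes of the nearest gene-body peaks to the left and right; circles are GRF5 replicate 1, squares replicate 2, and the dotted line marks 1. The libraries lie close together at each place except beside GRF3, where they stand at 6.42 and 4.61.

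At the other end, 5 peaks had the lowest means. They lay between AT3G47200 and AT3G47270 on chromosome 3 (1.42 and 1.47), between MYB37 and IMS2 on chromosome 5 (1.44 and 1.45), between NdhU and YLMG2 on chromosome 5 (1.45 and 1.38), between AT3G28830 and AT3G28850 on chromosome 3 (1.43 and 1.40), and between UMAMIT11 and AT2G40925 on chromosome 2 (1.35 and 1.44). The last, from 17069062 to 17069417, had pileups of 74 and 75 fragments over a background of 54.4 and 51.7, and −log10 q values of 1.42 and 1.95. That background was above the medians of 43.6 and 40.8, and the pileups were below those of 86 and 81. The peak between MYB37 and IMS2 had low pileups instead, of 63 and 62 fragments, over a background of 43.4 and 42.5. The peak between AT3G28830 and AT3G28850 was alike in this, with 65 and 59 fragments over 45.2 and 42.0.

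The median width of intergenic arm peaks was 425 bp in replicate 1 and 412 bp in replicate 2, against 479 and 468 bp for the other shared peaks. The rule can favour narrow peaks, since a wide one more often reaches a gene. The widest in replicate 1 covered chromosome 5 from 22140832 to 22142835, with 2004 bp there and 727 bp in replicate 2 and enrichments of 2.38 and 1.93, in the gap that holds DFL1. Next were peaks of 1782 and 786 bp on chromosome 2 from 6498898 to 6500679 (2.07 and 2.46), and of 1611 and 821 bp on chromosome 5 from 24392004 to 24393614 (2.04 and 1.89). The gene REV, a class III homeodomain factor of meristem and vascular patterning, lies in the gap of the last. Width differed strongly between libraries in all 3.

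In 2 wide peaks the bounds were closer. On chromosome 3 from 16934118 to 16935683 a peak of 1566 and 1207 bp had enrichments of 2.97 and 2.70, 4099 bp from a body peak of AT3G46100. On chromosome 5 from 8293490 to 8294972 a peak of 1483 and 1496 bp had enrichments of 2.49 and 2.25, 311 bp from a body peak of ATXR6, a histone methyltransferase of heterochromatin.

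Between the libraries, fold enrichment over the 1402 peaks had a Spearman rho of 0.58 and a Pearson r of 0.68 on the log2 scale. Replicate 1 was the higher one at 680 peaks (48.5%), and the log2 ratio of the libraries had an SD of 0.19. The points share an input library, whose background values had a rho of 0.86 between the lists. Among the 17606 other shared peaks the values were 0.57, 0.72 and 0.19. Of the intergenic arm peaks, 7 differed by more than 1.5-fold between the libraries.

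The largest ratios toward replicate 2 were at chromosome 2 from 5807094 to 5808044 (1.60 in replicate 1 and 2.67 in replicate 2) and at chromosome 3 from 9360945 to 9361300 between AT3G25700 and BHLH32 (1.58 and 2.43). Lower ratios followed on chromosome 1 between AT1G23720 and BCA3 (1.52 and 2.28), on chromosome 5 between body peaks of AT5G53020 (1.49 and 2.20) and on chromosome 1 between body peaks of UMAMIT35 and AT1G60070, with AT1G60060 among the genes between (1.55 and 2.26). In 4 of these 5 the summits lay 340, 319, 245 and 337 bp apart, so the libraries had their maxima at different places of one region. In the same order, the background at these 4 was 44.6, 45.8, 51.3 and 40.3 fragments in replicate 1. In replicate 2 it was 31.9, 35.8, 43.0 and 37.5 fragments, and its part in the ratios was not tested. The peak at AT5G53020 lay between 2 body peaks of that gene, 415 and 472 bp away, although both lists call it intergenic. In all, 3 of the 1402 peaks lay between body peaks of the same gene.

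Toward replicate 1, the largest ratio was on chromosome 5 from 22020367 to 22020900, with MRE11, a DNA repair nuclease, as its flank on one side, at 3.48 in replicate 1 and 2.21 in replicate 2. On chromosome 3 from 8190533 to 8191220 values were 2.61 and 1.68 between IAA2 and IAA7, both auxin-response repressors, with no protein-coding gene between them. The next had 2.14 and 1.38 and lay 5706 bp from a body peak of CSD2, a superoxide dismutase, in a gap that also holds AT2G28200. Values of 2.37 and 1.56, with summits 575 bp apart, were found between TPPB, a trehalose phosphate phosphatase, and AT1G78110, in a gap that holds AUF1. The background there was 36.2 fragments in replicate 1 and 47.7 in replicate 2. The last had 2.50 and 1.67 between TPS1 and POLD3, with 7 protein-coding genes between them.

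Compared with the other 17606 shared peaks, intergenic arm peaks had a slightly higher median fold (1.94 and 1.95, against 1.88 and 1.89), by 0.0585 in replicate 1 and 0.0676 in replicate 2. Their pileups were not higher, with medians of 86 and 81 fragments against 88 and 82. The implied background was lower in both libraries, at 43.6 and 40.8 against 46.0 and 43.1 fragments, and its part in the fold difference was not tested. Within the set, peaks with more background had a lower fold, with a rho of -0.37 in replicate 1 and -0.40 in replicate 2 across the 1402 peaks. Fold and background share terms by construction, so this is a description only. Promoter-only peaks had medians of 1.93 in both libraries and a background of 44.4 and 41.5 fragments, and pericentromeric intergenic peaks had 1.98 and 1.97 with 41.6 and 39.0 fragments.

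**Figure D3:**
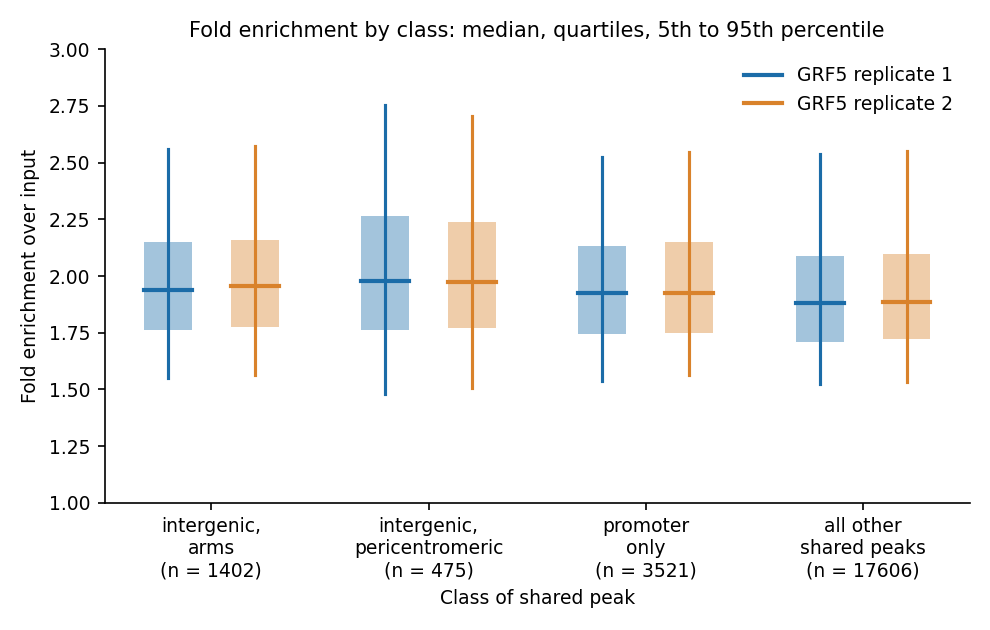
Fold enrichment over input (y axis, linear) by class of shared peak, from left to right intergenic on the arms, intergenic within 2 Mb of a centromere position, promoter only and all other shared peaks; bars are medians, boxes quartiles and lines the 5th to 95th percentile, blue for GRF5 replicate 1 and orange for replicate 2. The classes overlap over nearly their whole range, with medians of 1.94 and 1.95 for intergenic arm peaks against 1.88 and 1.89 for all others.

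Summits of intergenic arm peaks lay a median of 44.5 bp apart between libraries, against 53 bp for the other shared peaks. They were within 100 bp of each other at 1000 peaks (71.3%, 68.9 to 73.6), against 64.7% (64.0 to 65.4) of the others. The other shared peaks were also wider, and the part of width was not tested. Promoter-only peaks stood at 43 bp and pericentromeric intergenic peaks at 37 bp.

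Not every intergenic arm peak had a partner in the other library. Of the 2390 such peaks in replicate 1, 66.5% (64.6 to 68.4) overlapped a peak of any region in replicate 2, against 68.0% of all nuclear peaks. Of the 2243 in replicate 2, 71.6% (69.7 to 73.4) overlapped one in replicate 1, against 71.6% of all nuclear peaks. Peaks without a partner were weaker, with median folds of 1.75 against 1.93 in replicate 1 and 1.79 against 1.94 in replicate 2. The highest fold without a partner was 3.03 in replicate 1 and 3.07 in replicate 2, well under the strongest shared places.

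The annotation of a shared place was not always the same in both libraries. On the arms, 1562 pairs were intergenic only in replicate 1, and 1402 of them (89.8%) were so in replicate 2 as well. The partners of the other 160 touched coding sequence in 107 cases, a promoter in 54, an intron in 31 and a non-coding exon in 7. These partners were wider, at a median of 598 bp, against 353 bp for the intergenic peaks they overlapped. Of 1584 pairs intergenic only in replicate 2, 88.5% were so in replicate 1, and the partners of the other 182 were 609 bp wide, against 360 bp.

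By chromosome, 380 peaks lay on chromosome 1, 225 on 2, 263 on 3, 203 on 4 and 331 on 5. As a share of all shared arm peaks this was 8.26, 8.32, 7.92, 8.10 and 8.24%, so the chromosomes differed by less than their counting intervals. Median fold was also alike, from 1.92 on chromosome 3 to 1.96 on chromosome 2 in replicate 1 and from 1.94 to 1.98 on the same chromosomes in replicate 2. At least 2-fold enrichment in both libraries was reached by 31.6% on chromosome 2 and by 25.6 to 28.1% on the others.

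Along the arms the share of intergenic-only peaks among shared peaks was lower in nearly every bin farther from the centromere position. It was 14.1% from 2 to 3 Mb, 9.50% from 3 to 4, 8.26% from 4 to 6, 7.27% from 6 to 8, 7.58% from 8 to 12 and 6.39% beyond 12 Mb. Inside the limit it was 30.6% within 1 Mb and 22.6% from 1 to 2 Mb, so the 2 Mb limit cuts a slope and not a step. The 213 arm peaks nearest to it, from 2 to 3 Mb, had median folds of 2.02 and 1.99, and 35.7% of them reached 2-fold in both libraries. Beyond 12 Mb the medians were 1.92 and 1.93, and 23.9% did. The background of intergenic-only peaks went the other way, from 41.1 and 38.5 fragments at 2 to 3 Mb up to 44.8 and 41.9 beyond 12 Mb. In the other shared peaks the same pair of slopes was seen, and the part of the background in the fold was not tested.

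**Figure D4:**
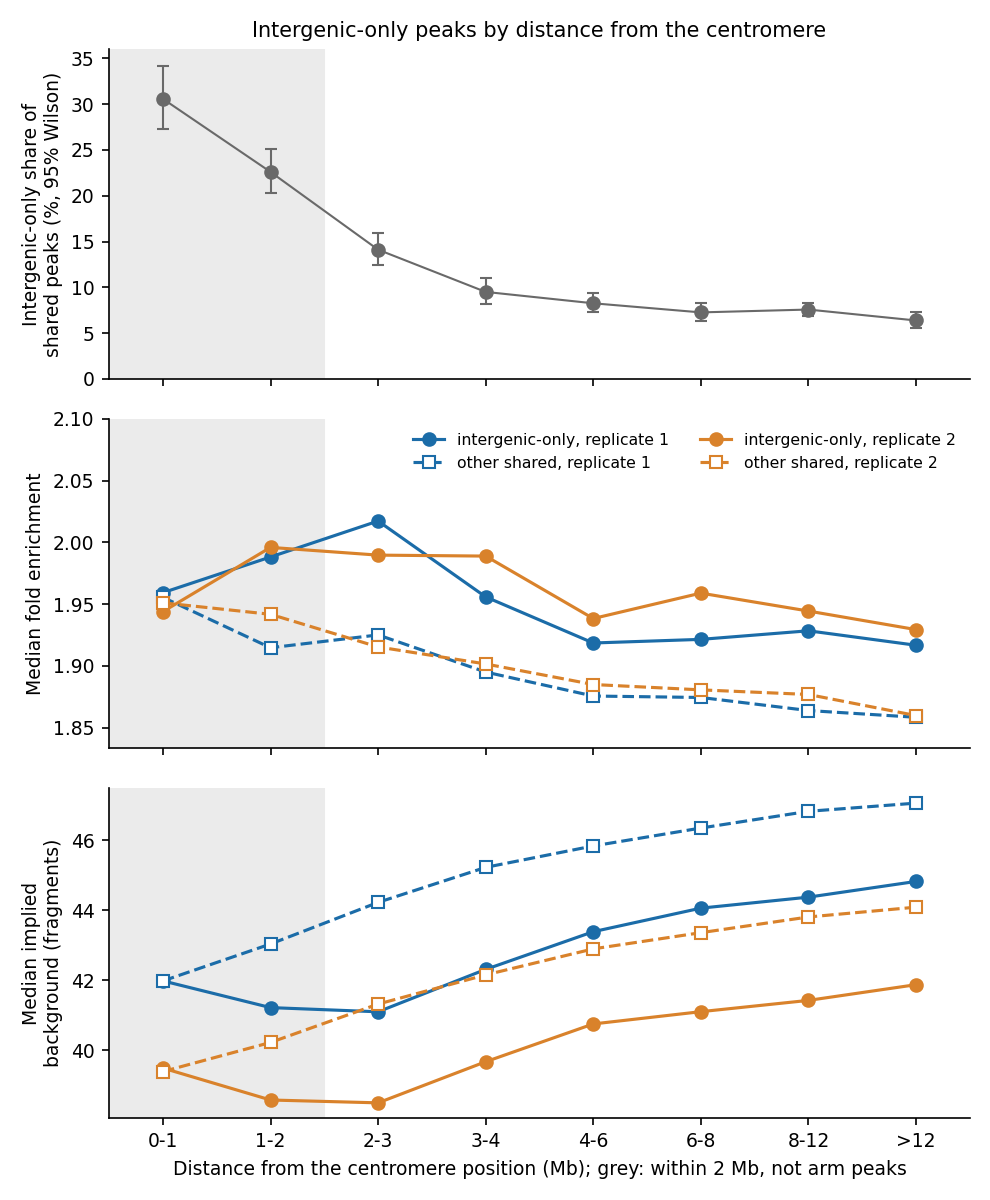
Intergenic-only peaks by distance of the replicate 1 summit from the centromere position (x axis, Mb), with bins within 2 Mb in grey: their share of shared peaks in percent with 95% Wilson intervals (top), their median fold enrichment (middle) and their median implied background in fragments (bottom), with filled circles for intergenic-only and open squares for other shared peaks and blue and orange for GRF5 replicates 1 and 2. The share is 30.6% in the innermost bin and 6.39% in the outermost. The background of intergenic-only peaks is lowest from 2 to 3 Mb, and that of other shared peaks within 1 Mb.

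At the limit itself, the 3 peaks just outside lay at 2.00 Mb on chromosome 2 (1.94 and 1.85) and at 2.01 Mb on chromosomes 1 (1.96 and 2.03) and 5 (1.90 and 2.23). The 3 just inside lay at 1.98 Mb on chromosomes 3 (1.91 and 1.82), 4 (1.49 and 1.79) and 5 (1.69 and 2.07). At the tips, the outermost shared peak of the left end was intergenic on chromosomes 1 and 3. The first on chromosome 1 covered 130 to 561 with 2.36 and 2.35, and the first on chromosome 3 covered 129 to 415 with 1.62 and 1.36. The other 8 outermost shared peaks touched genes or promoters.

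The distance from an intergenic arm peak to the nearest peak in a gene body, in either list, had a median of 2922 bp, with quartiles at 1484 and 5002 bp. It was under 1 kb for 219 peaks (15.6%) and over 10 kb for 70 (4.99%). Peaks nearer than 1 kb had median folds of 1.94 and 1.95, and those farther 1.94 and 1.96, so nearness to a measured gene body went with no difference in strength. The number of protein-coding genes between the 2 flanking genes was known for 1070 peaks. Of these, 320 lay between adjacent protein-coding genes, 324 had 1 protein-coding gene between the flanks, 189 had 2 and 237 had 3 or more. For the last groups the nearest gene is unknown, since a gene without a peak leaves no position in the files.

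For 90 peaks between adjacent protein-coding genes, the strand of both genes could be inferred from their own promoter and body peaks. The genes pointed toward each other around 24 peaks (26.7%, 18.6 to 36.6), away from each other around 23 (25.6%, 17.7 to 35.4) and the same way around 43 (47.8%). Over all 3111 adjacent pairs with both strands inferred, the shares were 17.0, 32.6 and 50.4%. The rule leaves out peaks in promoters, which lie at the facing ends of genes that point away from each other, and its part in these shares was not tested.

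Some intergenic arm peaks stood in a row, with no other shared peak between them. Such rows held 518 peaks (36.9%) in 221 runs, and the other 884 (63.1%) stood alone. No like share is given for other classes of peaks, so 36.9% is a description only. Most runs had 2 peaks, and 16 had 4 or more. The median distance to the nearest other intergenic arm peak was 13981 bp, with quartiles at 2852 and 41621 bp, and 189 (13.5%) had one within 1 kb. The nearest shared peak of any class was 1977 bp away at the median, against 1807 bp for the other shared peaks on the arms. The runs named below were chosen after their values were seen.

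The longest run held 9 peaks on chromosome 4 from 1699883 to 1737317, over 37435 bp. Their fold enrichments were 2.13, 2.09, 2.29, 2.30, 2.81, 2.61, 2.33, 2.92 and 2.70 in replicate 1 from left to right. In replicate 2 they were 1.94, 1.96, 2.32, 2.56, 2.65, 2.71, 2.52, 2.61 and 2.73. All 9 were above 2-fold in replicate 1, and 7 of them were so in replicate 2. The run lay just outside the 2 Mb limit, with its last peak 2.26 Mb from the centromere position. From 2 to 3 Mb, 35.7% of intergenic-only peaks reached 2-fold in both libraries. Implied background over the 9 ran from 32.3 to 71.5 fragments in replicate 1 and from 30.4 to 63.8 in replicate 2. The upper values, both at 1 peak, were the highest of all 1402. The gene table lists 8 genes between the flanks AT4G03740 and AT4G03800, each a pseudogene. The short arm of this chromosome in Col-0 is known for a heterochromatic knob, and whether the run lies in it was not looked up.

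A run of 5 peaks on chromosome 5 from 22139095 to 22146746 lay in the gap between FQR1 and AT5G54520, which holds DFL1. The first of them was 13589 bp from the nearest FQR1 body peak and the last 514 bp from that of AT5G54520. Its enrichments were 2.28, 2.38, 1.92, 1.69 and 3.42 in replicate 1 and 2.07, 1.93, 1.79, 2.02 and 3.06 in replicate 2. It includes the strongest intergenic peak of chromosome 5 and the widest of replicate 1, both described above. On chromosome 1 from 11725572 to 11735080, 4 peaks lay between NRT1.5, the transporter that loads nitrate into the root xylem, and AT1G32460, its neighbour in the gene table. They had enrichments of 2.47, 1.76, 1.96 and 2.02 in replicate 1 and 2.09, 1.56, 1.80 and 1.47 in replicate 2. Only the first, 6500 bp from the nearest NRT1.5 body peak, passed 2-fold in both libraries.

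On chromosome 3 from 10851144 to 10869064, 4 peaks lay between AT3G28850 and ABCB19, an auxin efflux carrier. That stretch also holds AT3G28853, AT3G28855 and PRE5. The first peak lay 616 bp from a body peak of AT3G28850 and 377 bp from one of AT3G28853. The 4 peaks had 2.78, 2.14, 2.36 and 2.43 in replicate 1 and 2.45, 2.25, 2.44 and 1.97 in replicate 2. On chromosome 1 from 8985578 to 8991951, 4 peaks lay in the gap that holds TEM1, a repressor of flowering, and 2 other genes, between PFT1, a Mediator subunit, and SOG1, a regulator of the DNA damage response. They had 1.55, 1.84, 1.80 and 2.17 in replicate 1 and 2.01, 2.07, 2.07 and 2.15 in replicate 2, so replicate 2 was higher at 3 of the 4.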

How the data were processed

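DAP-seq libraries of recombinant GRF5 (2) and an input library (1) were made from Arabidopsis root DNA; 1 peak list per GRF5 library, each called against the same input, was analysed, and the input's own table was not used here. The submitters' processing notes name Trimmomatic 0.39, Bowtie2 2.4.6, MACS2 2.2.7.1 and the TAIR10 build. Neither the caller's settings nor read totals are stated in the labels or file headers, so depth is known only as the deposited summit pileup signal, in whole fragments per the file headers. The deposited fold enrichment is a ratio of pileup to local input background, and the deposited −log10 p and −log10 q values are MACS2's, per the file headers. No q in the lists was above 0.05. Positions, lengths and region classes are the authors' annotation, per the file headers, and 1 was added to starts.

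Collapsing entries by chromosome, start and end (87571 in replicate 1, 82807 in replicate 2) left 28427 and 27133 peaks, of which 28349 and 27054 were nuclear. Pairs were matched one to one, largest overlap first; the pairing was tested on simulated data. Implied background is the pileup plus 1 over the fold, minus 1, on the assumption that MACS2 added its default pseudocount. Wilson (95%) and Poisson intervals cover counting error only. Peaks were named by rule: the 15 strongest, the strongest per chromosome, the 5 weakest, the 5 widest in replicate 1, and the 5 with the largest ratio between libraries each way. The peaks and lists were chosen with earlier results of these data known. Flanking genes are those of the nearest peaks in coding sequence, introns or exons of either list; symbols, gene types and gene order came from the RefSeq table of TAIR10.1, which matched all 27846 gene identifiers and gave no coordinates. Genome sequence was not used here, so no motif was sought. Alternatives were the overlap rule, the distance limit, a −log10 q of at least 5, and either list alone. Tables were made with pandas 2.3.3 and numpy 2.4.6 in Python 3.11.15, intervals with scipy 1.17.1 and figures with matplotlib 3.10.9.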

Additional observations from a re-analysis of the deposited data

How the results depend on the processing

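For pairs, fold and width are here the mean of both libraries. The main median width is thus 433.75 bp, not the 425 and 412 bp of each library. Requiring any overlap of at least 1 bp, an overlap of 50% of the longer peak, or a distance over 1 or 3 Mb gave 1422, 1233, 1666 and 1189 intergenic arm peaks. Under these alternatives median fold ran from 1.94 to 1.96 and summit distance from 44 to 45 bp. The shares ran from 25.7 to 28.6% at 2-fold and from 0.720 to 0.811% at 3-fold. Median width was 413.5 bp under the longer-peak rule and from 433 to 434.75 bp under the others. Runs, chromosome shares, partner shares, flanks, orientation and the agreement between libraries were not recomputed. A −log10 q of at least 5 in both lists kept 704 peaks, with a median fold of 2.13 against 1.95, a summit distance of 34 against 44.5 bp and a width of 449.25 bp; 54.3% of them reached 2-fold and 1.56% 3-fold, which follows from removing weak peaks. Each list alone, which needs no partner, held 2243 to 2390 peaks, with median folds of 1.87 to 1.90 and widths of 373 to 375 bp. Within that list alone, 33.0% of peaks in replicate 1 and 37.0% in replicate 2 reached 2-fold. The like shares among the 1402 pairs were 41.5% in replicate 1 and 44.2% in replicate 2, whereas the 27.2% given above needs 2-fold in both. Keeping only the 1000 pairs with summits within 100 bp, an alternative chosen after seeing the data, gave a median fold of 1.99, a width of 403.75 bp, 33.0% at 2-fold and 1.10% at 3-fold. The difference in median fold from the other shared peaks was positive in both libraries under each alternative on pairs, from 0.0296 to 0.0732, and the background difference negative, from -2.76 to -1.93 fragments. The planned comparison of base composition and motifs and its alternatives were not run, since no genome was used here. No paired analysis was possible because the single input library has no partner for the second GRF5 library and no result comes from a test. Summit pileups were as low as 55 fragments in replicate 1 and 52 in replicate 2, and the effect of depth was not tested.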
